A study of Homo sapiens with 33 samples.

Results

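The loss of anaplastic lymphoma kinase (ALK) was measured in TS cells, a subclone of the Sup-M2 line. That line comes from an anaplastic large cell lymphoma (ALCL) with ALK, a lymphoma of T-cell origin. The comparison held 6 of the 33 samples of the study, chosen by their titles: 3 arrays of cells with the short hairpin RNA A5 against ALK and doxycycline (1 microg/ml) for 84 h, against 3 arrays of the same engineered cells at 84 h without doxycycline. The first are called hairpin-induced cells here and the second uninduced cells. Set beside them were 3 arrays of TS cells with the mutated control hairpin A5M and doxycycline for 84 h, and induced and uninduced A5 cells at 72 h (3 arrays each) for TS and for Su-DHL1, another ALK-positive ALCL line. All these cells, the uninduced ones included, carried a lentiviral vector with DsRed and the tTRKRAB repressor and another with GFP and the hairpin. They were sorted for both colours after 12 h of doxycycline, sorted again against GFP without it, and expanded. Whether replicates were grown separately is not given in the labels, and p-values cover only the variation among these arrays, part of which may be technical.

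ALK-positive ALCL is driven by a fusion of ALK with a partner, most often nucleophosmin (NPM1), that keeps the kinase active without a ligand. The fusion kinase signals through STAT3, through PI3K and AKT, which hold the FOXO factors out of the nucleus, and through RAS and ERK. The tumour cells carry CD30, the interleukin-2 receptor alpha chain and proteins of cytotoxic granules, and often have lost parts of the T-cell receptor complex.

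RNA was read on Affymetrix human oligonucleotide arrays, 1 per sample, as MAS5 signal, a linear intensity per probe set. Tests were run with limma on log2(signal + 11), a scale that understates the change of low signals, over 9097 genes with 1 probe set each. A log2 difference is hairpin-induced minus uninduced, with limma's standard error after ±, a signal has the SD of 3 arrays after ±, and called means a Benjamini-Hochberg adjusted p below 0.05. At 84 h 3700 genes were called, 40.7% of those tested, with 1986 higher (21.8%) and 1714 lower (18.8%). Centring the arrays on their medians shifted the median difference of all genes from 0.057 to -0.038 and gave 1529 higher and 2005 lower, so that the share of calls that were higher was 43.3% in place of 53.7%. A change of at least 2-fold was called for 520 higher and 457 lower genes, and of at least 8-fold for 21 higher and 11 lower genes. The scaling fixes a common total per array, so that fewer cells of a type and less RNA per cell cannot be told apart. The 3' to 5' signal ratio of the ACTB control probe sets, which depends on RNA quality and labelling, was 1.27 ± 0.02 in hairpin-induced, 1.52 ± 0.08 in A5M and 1.54 ± 0.05 in uninduced cells, while that of GAPDH was 0.86 ± 0.03, 0.89 ± 0.07 and 0.87 ± 0.06. Once the ACTB ratio entered the model as a covariate, 1899 of the 9097 genes were called, 928 higher and 971 lower, in place of 3700. List counts with the covariate, given below, stand beside this smaller number of calls over all genes. The ratio itself separated the hairpin-induced from the uninduced arrays. The covariate therefore takes up part of the same contrast and makes its estimate less precise. A call lost with the covariate can thus come from a smaller difference or from a wider error.

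**Figure D1:**
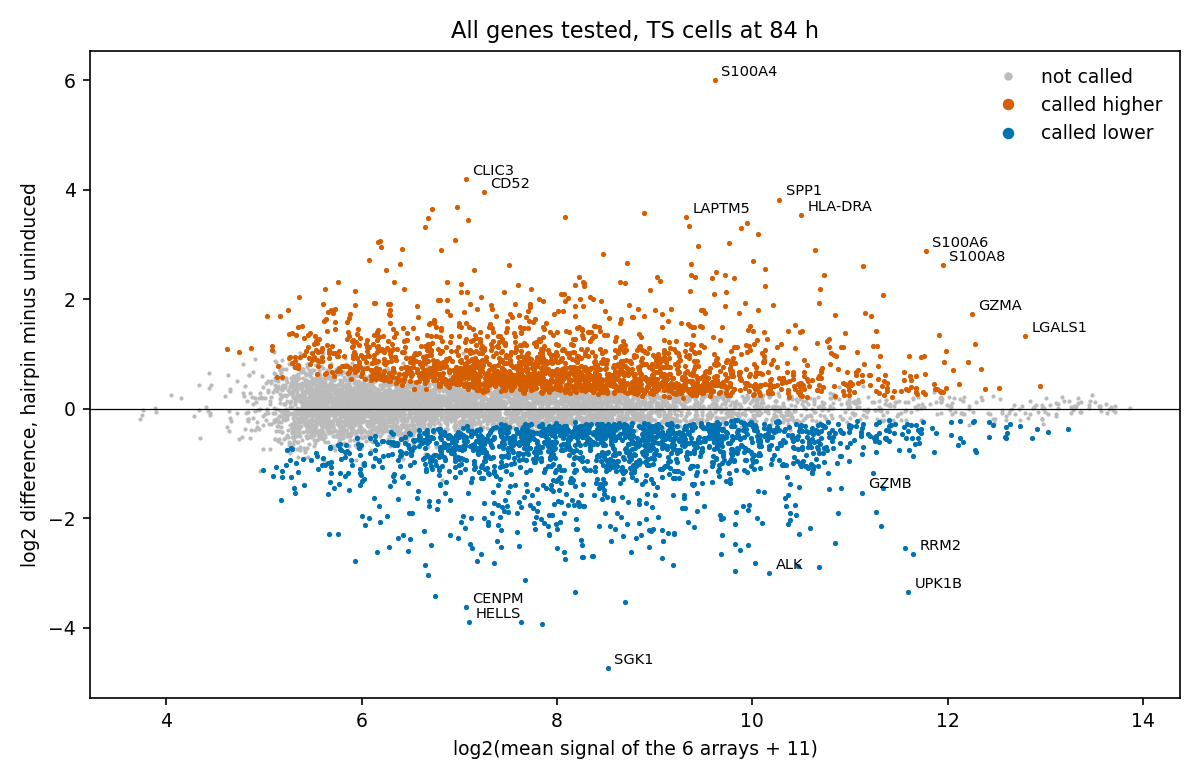
Log2 difference (hairpin-induced minus uninduced, TS 84 h, vertical axis) against log2 of the mean signal plus 11 over the 6 arrays (horizontal axis), 1 point per gene for 9097 genes. Orange points were called higher (1986), blue points lower (1714) and grey points were not called. S100A4 lies at 6.00 and SGK1 at -4.74.

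The target itself was lower on every hairpin-induced array. ALK had 201.1, 253.9 and 289.0 signal units in hairpin-induced cells by probe set 208212_s_at, against 1927.3, 2090.7 and 2100.3 in uninduced cells, so that 12.2% of the mean was left (log2 difference -3.00 ± 0.11, limma adjusted p = 2.98e-16). By 208211_s_at it had 151.3, 130.7 and 130.7 in hairpin-induced cells against 469.9, 515.7 and 526.7 in uninduced cells, with 27.3% left. The groups did not overlap by either probe set. A5M cells had 1667.2, 1652.0 and 1739.0 by the first, below all uninduced arrays, although ALK was not called between them (limma adjusted p = 0.149). NPM1, which encodes the usual fusion partner and a nucleolar chaperone of ribosome assembly, fell to 3512 ± 126.5 in hairpin-induced cells, against 4885 ± 146.7 in uninduced cells. Of the mean 71.9% was left, and 55.2% and 54.4% by 2 further probe sets. The log2 difference of NPM1 was -0.47 ± 0.07 (limma adjusted p = 1.11e-05; -0.85 and -0.88 by the others) and was not called with the ACTB covariate (-0.27, limma adjusted p = 0.116).

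Genes of the cell cycle were among the deepest falls. Among the 15 lowest log2 differences of called genes without overlap of the groups were GINS2, GINS1 and MCM2 of the replicative helicase, HELLS, a chromatin remodeller, CENPM, a centromere protein, DTL, which targets the licensing factor CDT1 for destruction, RAD54L and RAD51AP1 of homologous recombination, and CDC25A, a phosphatase that activates cyclin-dependent kinases. GINS2 had 31.0, 24.8 and 3.6 in hairpin-induced cells against 430.9, 458.0 and 365.0 in uninduced cells (-3.93 ± 0.26, limma adjusted p = 1.28e-11). HELLS had 5.1, 11.5 and 3.4 against 236.6, 253.9 and 246.0 in uninduced cells (-3.89 ± 0.18, limma adjusted p = 1.79e-14). The rule that chose both genes required groups without overlap, which 4157 of the 9097 genes tested had. The log2 difference was -3.62 for CENPM, -3.53 for DTL, -3.41 for RAD54L, -3.35 for GINS1, -3.13 for RAD51AP1 and -3.03 for CDC25A.

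Of 23 tested genes of replication origins and the replicative helicase, 20 fell and none rose, with a median log2 difference of -1.87 beside 0.06 over all genes tested. MCM2 had 189.7, 205.3 and 190.1 in hairpin-induced cells against 1680.0, 1697.6 and 1421.3 in uninduced cells (-2.96 ± 0.09, limma adjusted p = 4.85e-17). MCM4, another subunit of the helicase ring, averaged 131.1 ± 9.05 in hairpin-induced cells and 1015 ± 103.8 in uninduced cells. The 3 members that were not called were the origin recognition subunits ORC2 (-0.24), ORC5 (-0.19) and ORC4 (-0.16), whereas the subunits ORC1 (-1.63), ORC6 (-2.09) and ORC3 (-0.90) fell. ORC genes are named here after their values were seen. The A5M arrays of MCM2 (1180.1, 1248.0 and 1086.0) lay above all hairpin-induced ones, but were also called lower than those of uninduced cells (-0.44, limma adjusted p = 0.00451).

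DNA polymerases, the sliding clamp and its loader fell in 20 of 22 tested genes, with a median of -1.39 and no rise. POLA2 of the polymerase alpha and primase complex fell (-2.35), as did its catalytic primase PRIM1 (-2.27). RFC3, a clamp loader subunit, had 176.3, 155.8 and 159.5 in hairpin-induced cells, against 830.9, 778.0 and 782.0 in uninduced cells, which is a narrow range in each group. Nucleotide synthesis fell in 20 of 22 tested genes as well, at a smaller median of -0.80. Its deepest falls were the genes that supply deoxynucleotides. RRM2, the small subunit of ribonucleotide reductase, had 929.3, 891.7 and 786.8 in hairpin-induced cells against 5607.8, 5413.2 and 5559.5 in uninduced cells (-2.66 ± 0.09, limma adjusted p = 2.39e-16). TYMS, thymidylate synthase, averaged 884.8 ± 157.4 in hairpin-induced and 5130 ± 113.5 in uninduced cells. TK1, thymidine kinase (-1.72), and the folate enzyme MTHFD1 (-1.14) fell too.

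Regulators of the cycle followed in part. Of 24 tested cyclins, cyclin-dependent kinases and members of the E2F and RB families, 14 fell and 1 rose, with a median of -0.68. CCNA2, cyclin A, had 44.3, 68.8 and 64.6 in hairpin-induced cells against 445.4, 524.2 and 407.8 in uninduced cells. CDK1, the mitotic kinase, averaged 256.8 ± 17.6 in hairpin-induced and 1600 ± 332.0 in uninduced cells, and E2F8, a repressor of the E2F family, fell by 2.38. The 1 rise was RB1, the retinoblastoma protein (0.44), named after its value was seen. Of 6 tested CDK inhibitors, 3 rose and 1 fell. CDKN1A, which encodes p21, had 2410.7, 2434.4 and 2616.6 in hairpin-induced cells against 1162.2, 873.8 and 1034.4 in uninduced cells (1.28 ± 0.10, limma adjusted p = 1.86e-10). CDKN2A rose by 0.52 and CDKN1B, which encodes p27, by 0.48. CDKN3, a phosphatase that is listed with the inhibitors, fell by 1.65.

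Mitotic genes fell nearly throughout. Of 17 tested mitotic kinases and parts of the anaphase-promoting machinery, 16 fell by at least 2-fold (median -2.00) and FZR1 was not called (0.28). FOXM1, a transcription factor of mitotic genes, had 33.8, 22.3 and 21.6 in hairpin-induced cells, against 278.6, 231.9 and 214.0 in uninduced cells. AURKB, the kinase of the chromosomal passenger complex, fell (-2.69), as did separase, ESPL1 (-2.41), and the checkpoint protein MAD2L1 (-2.30). PTTG1, securin, was among the 10 largest falls of signal of called genes changed at least 2-fold without overlap. It averaged 928.6 ± 53.5 in hairpin-induced and 4158 ± 500.3 in uninduced cells. Of 29 tested genes of the kinetochore, the spindle and condensin, 28 fell by at least 2-fold (median -1.97), and KIF18A was not called (-0.40). KIF15, a spindle motor, had 66.5, 65.7 and 81.7 in hairpin-induced cells, against 516.8, 595.5 and 459.6 in uninduced cells. BIRC5, survivin, fell (-2.70), and so did SPC25, a kinetochore protein (-2.51). FZR1 and KIF18A were chosen for naming after their values were seen.

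Repair and chromatin genes of S phase followed. Homologous recombination and checkpoint genes fell in 14 of 15 tested (median -1.38), with CHEK1, the checkpoint kinase of stalled forks, at -2.30 and FANCI at -2.28. Chromatin genes of S phase fell in 12 of 13 tested (median -1.44). CHAF1B, of the histone chaperone CAF-1, averaged 4.57 ± 1.5 in hairpin-induced and 95.5 ± 6.35 in uninduced cells, and ASF1B (-2.14) and EZH2, the Polycomb methyltransferase (-1.75), fell. With the ACTB covariate the falls numbered 19 of 23 at origins, 19 of 22 for polymerases, 16 of 17 for mitotic kinases and 28 of 29 for the kinetochore. The list medians in A5M cells against the same uninduced arrays were -0.12, -0.16, 0.01 and -0.08 for those groups. In A5M cells 3 of 23 genes at origins and 4 of 22 for polymerases were called lower, beside 342 of all 9097 genes. MCM4 (-0.37) and PRIM1 (-0.43) were among them. Of the mitotic kinases 1 was called higher in A5M cells, and no kinetochore gene was called.

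Promoter windows of these genes are shown because S-phase and mitotic genes are known to share particular promoter letters. Each window runs from 250 bases before to 50 after the start in RefSeq on GRCh38.p14, and a promoter was found for 7461 of the genes tested. The first set are replication genes with E2F letters in capitals. GINS2 lies on the minus strand (chr16:85688905-85689204), GINS1 on the plus strand (chr20:25407423-25407722) and MCM2 on the plus strand (chr3:127598161-127598460).
GINS2: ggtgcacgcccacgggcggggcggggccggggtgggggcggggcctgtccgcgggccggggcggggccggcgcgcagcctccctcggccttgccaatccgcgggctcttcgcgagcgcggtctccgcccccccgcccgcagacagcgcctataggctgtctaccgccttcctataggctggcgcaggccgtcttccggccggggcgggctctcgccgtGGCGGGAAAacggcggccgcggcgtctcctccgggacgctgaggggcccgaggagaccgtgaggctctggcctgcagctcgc
GINS1: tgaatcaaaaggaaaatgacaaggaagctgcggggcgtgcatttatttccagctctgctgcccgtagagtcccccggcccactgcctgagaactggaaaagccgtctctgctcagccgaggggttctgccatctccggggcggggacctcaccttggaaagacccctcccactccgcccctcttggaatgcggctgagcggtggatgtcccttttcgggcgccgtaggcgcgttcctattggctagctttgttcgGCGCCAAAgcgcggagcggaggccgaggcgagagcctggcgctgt
MCM2: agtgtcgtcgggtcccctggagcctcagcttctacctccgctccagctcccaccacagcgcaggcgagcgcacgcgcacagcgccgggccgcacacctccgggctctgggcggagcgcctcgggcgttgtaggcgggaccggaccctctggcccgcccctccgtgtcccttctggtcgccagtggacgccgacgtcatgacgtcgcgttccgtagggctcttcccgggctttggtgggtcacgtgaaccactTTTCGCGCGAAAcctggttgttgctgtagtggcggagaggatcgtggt
The second set are mitotic genes with the letters of the cell cycle homology region (CHR) in capitals. KIF15 lies on the plus strand (chr3:44761544-44761843) and SPC25 on the minus strand (chr2:168890381-168890680). Both windows also hold E2F letters, left in lower case here, and that of SPC25 has CHR letters further upstream.
KIF15: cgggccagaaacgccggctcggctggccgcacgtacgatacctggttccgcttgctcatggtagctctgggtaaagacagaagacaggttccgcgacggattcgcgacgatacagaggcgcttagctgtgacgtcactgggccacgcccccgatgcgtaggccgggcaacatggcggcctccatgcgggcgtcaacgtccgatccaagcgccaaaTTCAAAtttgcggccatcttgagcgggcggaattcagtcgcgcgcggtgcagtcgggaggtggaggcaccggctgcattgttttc
SPC25: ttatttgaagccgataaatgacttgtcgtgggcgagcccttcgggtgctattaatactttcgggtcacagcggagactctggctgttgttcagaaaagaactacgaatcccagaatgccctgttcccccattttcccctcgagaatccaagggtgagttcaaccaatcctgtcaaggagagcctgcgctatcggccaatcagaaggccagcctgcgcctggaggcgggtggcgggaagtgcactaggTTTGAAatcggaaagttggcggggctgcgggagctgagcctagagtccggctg
The E2F letters searched were TTTCCCGC, TTTGGCGC, TTTCGCGC and GGCGGGAA, on both strands, and matches of several of them overlap, as in GINS2 and MCM2. The CHR letters were TTTGAA and TTTAAA on both strands, counted from 100 bases before to 50 after the start, and TTTAAA reads the same on either strand. E2F letters were in 21 of 39 promoters of origin, helicase and polymerase genes (53.8%), beside 8.4% of the promoters of genes tested and 5.1% of all 27305 promoters. CHR letters were in 29 of 39 promoters of mitotic genes (74.4%), beside 6.8% of genes tested and 11.3% of all promoters. E2F letters were in 4 of the 39 mitotic promoters (10.3%). Among genes called lower by at least 2-fold with a promoter (376), 19.7% held E2F letters and 23.1% CHR letters, whereas among those called higher by at least 2-fold (423) the shares were 5.0% and 6.1%. The letters describe the windows and were not tested.

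**Figure D2:**
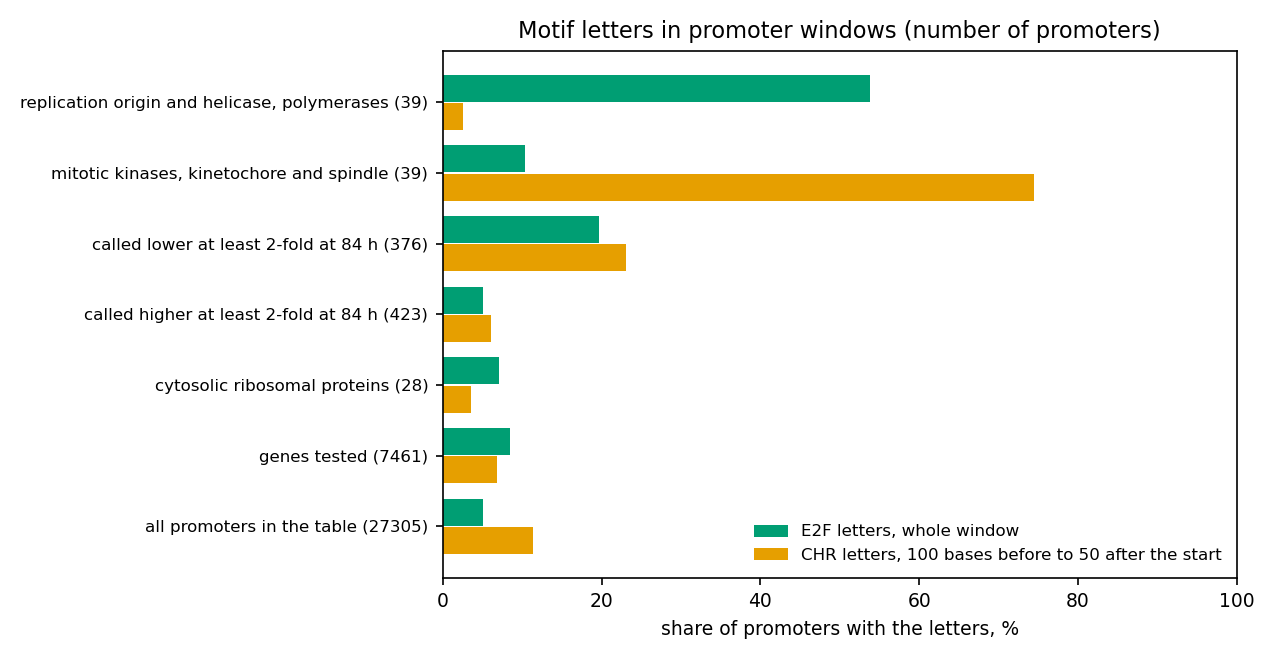
Share of promoters (percent, horizontal axis) that hold E2F letters in the whole window (green) or CHR letters near the start (yellow), for gene groups with their number of promoters in parentheses. The bars of replication genes reach 53.8% for E2F letters and those of mitotic genes 74.4% for CHR letters, beside 8.4% and 6.8% of genes tested.

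MYC and genes of ribosome assembly fell, while nearly all ribosomal proteins were not called. MYC had 309.9, 327.6 and 330.3 in hairpin-induced cells against 1444.0, 1163.8 and 1364.4 in uninduced cells (-2.00 ± 0.09, limma adjusted p = 2.13e-14). Of 24 tested MYC and ribosome biogenesis genes 21 fell (median -0.77), among them MRTO4 (-1.56), NOP16 (-1.19) and NOLC1 (-1.13), which act in the nucleolus. In A5M cells the same list had a median of 0.23 with 3 genes called higher, NOLC1 among them (0.56). Of 31 tested cytosolic ribosomal proteins only RPL3 was called, at -0.36 ± 0.10, and the others lay between -0.20 and 0.19. That call was lost with the ACTB covariate (-0.24, limma adjusted p = 0.364).

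Chaperones fell in 13 of 21 tested genes and rose in 1, with a median of -0.38, and 7 fell with the ACTB covariate. HSPE1, the mitochondrial co-chaperonin, had 1132.0, 1433.9 and 1902.2 in hairpin-induced cells, against 3782.6, 3036.4 and 3157.8 in uninduced cells. DNAJC9 (-1.03) and FKBP4, a co-chaperone of HSP90 (-0.93), fell. The 1 rise was HSPA5, the chaperone of the endoplasmic reticulum (0.57), named after its value was seen. Amino acid response genes and tRNA synthetases fell in 11 of 24 tested and rose in 2 (54.2% called, beside 40.7% of all genes, median -0.27). With the ACTB covariate 9 fell and none rose. The transporters SLC1A5 (-0.99) and SLC7A5 (-0.91) and the stress factor ATF3 (-0.99) were lowest. In A5M cells 12 of those 24 were called higher. CHAC1, which degrades glutathione, was higher in both: it averaged 144.2 ± 24 in hairpin-induced, 158.9 in A5M and 56.8 ± 34.8 in uninduced cells, and it was not called with the ACTB covariate (0.88, limma adjusted p = 0.13).

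Energy and lipid metabolism had calls in both directions and medians near 0. Oxidative phosphorylation had 9 rises and 5 falls in 28 tested genes (50% called, beside 40.7% of all genes), all under 2-fold, from ATP5MC1 (-0.67) to NDUFA1 (0.61). It had 4 rises and 5 falls after median centring, and 4 rises and 1 fall with the ACTB covariate. Glycolysis and hypoxia genes had 3 rises and 8 falls in 28 (39.3% called, median -0.12), or no rise and 3 falls with the ACTB covariate, while 15 of the 28 were called lower in A5M cells. HK2, hexokinase, averaged 251.0 ± 8.57 in hairpin-induced, 288.8 in A5M and 405.4 ± 91.6 in uninduced cells. NDRG1 showed opposite sides, with 2018 ± 74.2 in hairpin-induced, 517.7 in A5M and 1302 ± 388.4 in uninduced cells. Cholesterol and fatty acid synthesis had 5 rises and 5 falls in 16 (62.5% called), or 2 and 3 with the ACTB covariate. LSS, lanosterol synthase, rose by 1.79 and SREBF1, the transcription factor of lipid synthesis, by 1.24. ACACA, acetyl-CoA carboxylase, was called (1.48 ± 0.52, limma adjusted p = 0.0266), but its uninduced arrays were 282.7, 17.0 and 290.7, and without uninduced replicate 2, at 17.0, the difference was 0.34 (limma adjusted p = 0.319). It was not called either without hairpin-induced replicate 2 or 3 (limma adjusted p = 0.063 and 0.0774), and its other probe set was at -0.49.

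The genes around the kinase itself gave no common direction. Of 21 tested proximal ALK partners 5 rose and 6 fell, ALK and NPM1 included (52.4% called, beside 40.7% of all genes). With the ACTB covariate 5 rose and 2 fell. PIK3CD, the PI3K catalytic subunit of leukocytes, had 201.9, 186.4 and 228.3 in hairpin-induced cells, against 39.3, 17.3 and 71.7 in uninduced cells (2.14 ± 0.29, limma adjusted p = 2.32e-06). By its other probe set it averaged 91.0 ± 11.2 in hairpin-induced and 78.8 ± 28.3 in uninduced cells, and the groups overlapped (0.22 ± 0.22). JAK2 rose by 1.28 from low signals. IRS1, an adaptor of ALK, averaged 111.2 ± 10.3 in hairpin-induced, 102.4 in A5M and 190.5 ± 54.5 in uninduced cells. Hairpin-induced and A5M cells were both called lower.

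Genes known as STAT3 targets fell in 17 and rose in 6 of 29 tested, with a median of -0.61. IL2RA, the interleukin-2 receptor alpha chain, had 329.0, 360.8 and 299.2 in hairpin-induced cells against 2478.6, 2769.5 and 2198.1 in uninduced cells (-2.87 ± 0.12, limma adjusted p = 4.29e-15). ICOS, a costimulatory receptor, had 126.6, 104.1 and 98.9 in hairpin-induced cells, against 675.2, 776.4 and 745.1 in uninduced cells. OSM, the cytokine oncostatin M, averaged 9.20 ± 3.36 in hairpin-induced and 111.6 ± 16.4 in uninduced cells. Some of these genes also fell, by less, in A5M cells, which averaged 1658 for IL2RA and 525.1 for ICOS. CEBPB, a transcription factor the study followed, had 2621.9, 2622.1 and 2593.0 in hairpin-induced cells, against 4202.7, 3792.8 and 4179.5 in uninduced cells (-0.63 ± 0.09, limma adjusted p = 6.88e-06). BCL2A1, a survival factor of the BCL2 family, had 749.8, 605.8 and 529.2 in hairpin-induced cells against 2030.4, 1855.1 and 1908.4 in uninduced cells (-1.62 ± 0.11, limma adjusted p = 4.18e-11). The study chose both genes, so their direction is not independent evidence. The rises of the list included BCL2L1, which encodes the survival protein BCL-XL (1.12), and FAS, the death receptor (1.41).

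The PI3K and FOXO list was mixed in count, with 6 rises and 5 falls in 20 tested (55% called, beside 40.7% of all genes). With the ACTB covariate it had 4 rises and 3 falls. The list held the largest fall of all. SGK1, a kinase activated through PI3K, had 17.2, 11.5 and 17.7 in hairpin-induced cells, 228.3 on average in A5M cells, and 720.5, 725.9 and 639.0 in uninduced cells (-4.74 ± 0.15, limma adjusted p = 4.85e-17). The A5M arrays lay between the other groups and were also called lower than uninduced cells (-1.57, limma adjusted p = 2.31e-07). TXNIP, a thioredoxin inhibitor and FOXO target, rose to 2829.7, 2835.0 and 2730.3 in hairpin-induced cells, against 365.8, 308.1 and 432.6 in uninduced cells (2.90 ± 0.12, limma adjusted p = 1.52e-15). TRIB2, a pseudokinase, averaged 1133 ± 38.9 in hairpin-induced and 204.6 ± 10.0 in uninduced cells. S1PR1, the receptor for lymphocyte egress, fell by 1.96.

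ERK targets and feedback genes rose in 9 and fell in 6 of 25 tested (60% called, beside 40.7% of all genes, median -0.02). With the ACTB covariate 6 rose and 4 fell. PHLDA1 had 712.2, 655.4 and 765.1 in hairpin-induced cells, against 96.4, 74.3 and 146.6 in uninduced cells, and ETV1, a transcription factor, rose by 1.74. The p53 target list rose in 11 and fell in 3 of 19 tested (median 0.45), or 7 and 2 with the ACTB covariate. Its members ran from -0.86 to 1.41, the value of both TP53I3 and FAS. TIGAR, a regulator of glycolysis on this list, averaged 418.2 ± 81.8 in hairpin-induced, 378.2 in A5M and 191.3 ± 41.5 in uninduced cells. Hairpin-induced and A5M cells were both called higher. The BCL2 family and other apoptosis genes rose in 6 and fell in 5 of 23 tested (47.8% called, beside 40.7% of all genes). With the ACTB covariate 4 rose and 2 fell. BAX, which permeabilises mitochondria, averaged 303.4 ± 69 in hairpin-induced and 160.4 ± 20.2 in uninduced cells, a rise of 0.86 that was not called with the ACTB covariate (0.37, limma adjusted p = 0.422).

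Of NF-kB factors and targets, 3 rose and 5 fell in 17 tested (47.1% called, beside 40.7% of all genes). With the ACTB covariate 1 rose and 3 fell. NFKBIA, the inhibitor of NF-kB that is also its target, had 497.4, 452.2 and 514.4 in hairpin-induced cells, against 2135.3, 2083.8 and 2141.2 in uninduced cells (-2.10 ± 0.12, limma adjusted p = 7.12e-13). TRAF1 was called higher (0.85, limma adjusted p = 0.0223) although its groups overlapped, and without uninduced replicate 1 it was at 0.38 (limma adjusted p = 0.244). It was not called without hairpin-induced replicate 1 or 2 either (limma adjusted p = 0.0836 and 0.0618). The transforming growth factor beta list had 5 rises and 3 falls in 21 (38.1% called), or 4 and 1 with the ACTB covariate. TGFBR2, the type II receptor, had 2458.1, 2308.3 and 2442.5 in hairpin-induced cells, against 978.7, 1201.1 and 1109.6 in uninduced cells, while A5M cells averaged 751.4. Among stress genes 3 rose and 4 fell in 16 (43.8% called), or 2 and 1 with the ACTB covariate. NQO1, a quinone reductase, was at 1.66, SQSTM1 at 0.93 and GCLM at -0.90. The last was not called with the ACTB covariate (-0.54, limma adjusted p = 0.347). GADD45A, at -0.86, averaged 1332 ± 253.7 in hairpin-induced and 2450 ± 646.2 in uninduced cells. Its call was also lost with the ACTB covariate (-0.6, limma adjusted p = 0.185).

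**Figure D3:**
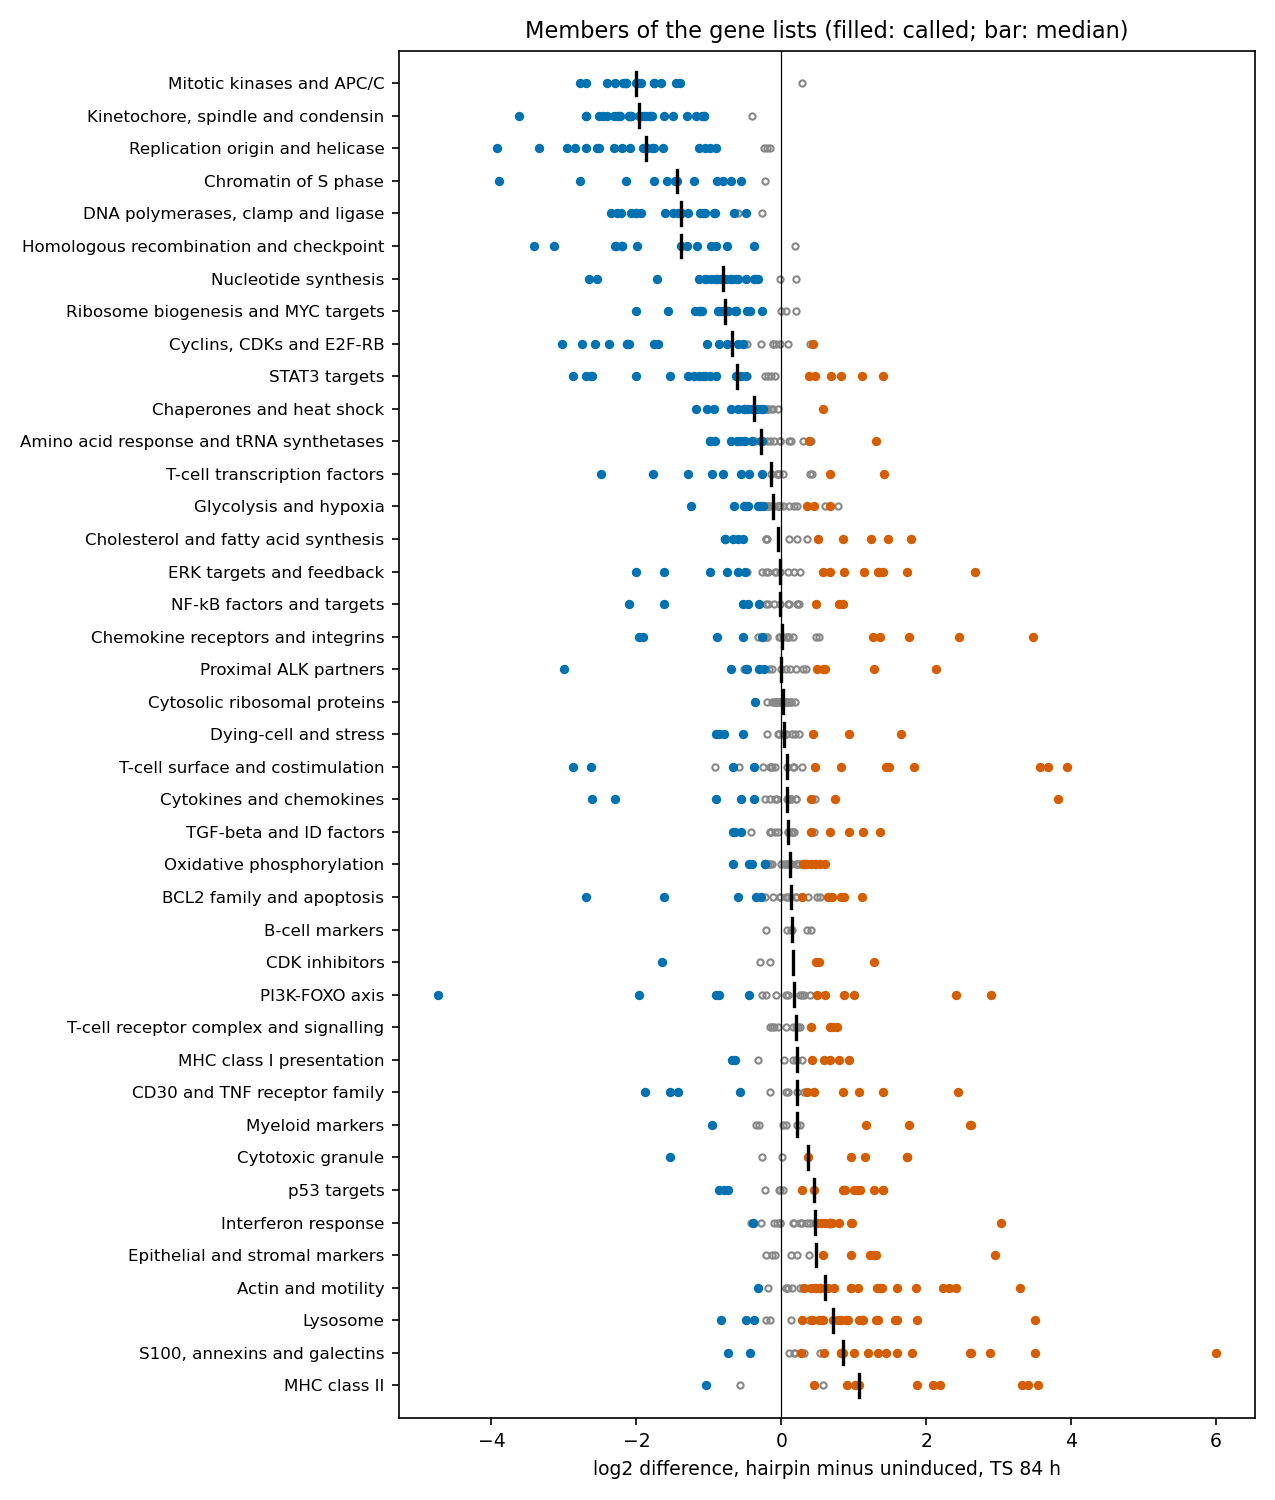
Log2 difference (hairpin-induced minus uninduced, TS 84 h, horizontal axis) of the tested members of 41 gene lists, 1 row per list, ordered by the list's median (black bar). Orange members were called higher, blue members lower, and open grey members were not called. Mitotic kinases have a median of -2.00 and MHC class II genes of 1.08.

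CD30, a surface molecule of ALCL, fell, and members of its family changed in both directions. TNFRSF8, which encodes CD30, had 339.7, 401.5 and 391.3 in hairpin-induced cells against 1357.4, 1459.7 and 1440.0 in uninduced cells (-1.88 ± 0.09, limma adjusted p = 2.81e-14), and A5M cells averaged 1449. The list of CD30 and its family had 6 rises and 4 falls in 15 tested. TNFSF9, the ligand 4-1BBL, averaged 1104 ± 125.5 in hairpin-induced and 197.2 ± 47.2 in uninduced cells, while its receptor TNFRSF9 averaged 49.4 ± 13.7 in hairpin-induced and 160.5 ± 17.2 in uninduced cells. A5M cells, at 70.2, were also called lower for the receptor. TNFRSF21, death receptor 6, fell by 1.42.

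T-cell surface and costimulatory genes rose in 8 and fell in 4 of 23 tested (52.2% called), or 7 and 2 with the ACTB covariate. CD52, a small glycoprotein of the lymphocyte surface, had 309.2, 241.2 and 273.8 in hairpin-induced cells against 6.3, 7.6 and 8.4 in uninduced cells (3.95 ± 0.25, limma adjusted p = 4.5e-12). SIRPG, a T-cell receptor for CD47, averaged 864.8 ± 131.7 in hairpin-induced and 65.2 ± 25.5 in uninduced cells. GPR171, a receptor of lymphocytes, averaged 220.6 ± 41.6 in hairpin-induced and 8.27 ± 9.65 in uninduced cells. The T-cell receptor complex and its signalling had 4 rises and no fall in 13 tested (30.8% called, beside 40.7% of all genes). All were under 2-fold, and the list had 2 rises with the ACTB covariate. FYN, a kinase of the receptor, was highest at 0.77, followed by TRBC1 (0.72) and PTPRC, which encodes CD45 (0.67). FYN lost its call with the ACTB covariate (0.54, limma adjusted p = 0.178). CD3D, a chain of the complex, had 1220 ± 136.8 in hairpin-induced and 1259 ± 131.4 in uninduced cells and was not called. T-cell transcription factors fell in 8 and rose in 2 of 17 (58.8% called), or 5 and 2 with the ACTB covariate. LEF1 averaged 83.0 ± 25.2 in hairpin-induced and 504.3 ± 15.3 in uninduced cells, BATF3 fell by 1.77, and SATB1, a chromatin organiser of thymocytes, rose by 1.42. RORA averaged 137.6 ± 6.44 in hairpin-induced, 147.5 in A5M and 356.0 ± 75.5 in uninduced cells, as low with the control hairpin as with A5.

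The granule genes separated the granzymes. Of 9 tested cytotoxic granule genes 5 rose and 1 fell. GZMB, granzyme B, had 1114.1, 1026.3 and 1274.6 in hairpin-induced cells, against 3521.9, 3153.5 and 3245.6 in uninduced cells (-1.53 ± 0.09, limma adjusted p = 2.28e-12). GZMA, granzyme A, had 8316.1, 6923.8 and 7245.8 in hairpin-induced cells, against 2256.3, 2379.0 and 2114.3 in uninduced cells (1.73 ± 0.08, limma adjusted p = 3.98e-14). Both enzymes were chosen among genes without overlap of the groups, and their directions were opposite. SRGN, serglycin, the proteoglycan that packs granules, rose by 1.74, the cystatin CST7 by 1.15 and perforin (PRF1), one of the ALCL markers, by 0.96.

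Secreted factors and homing receptors held some of the largest single changes. SPP1, osteopontin, had 2468.5, 2197.2 and 2256.7 in hairpin-induced cells against 152.8, 152.7 and 153.2 in uninduced cells (3.82 ± 0.09, limma adjusted p = 8.1e-20). A5M cells averaged 104.1, below the uninduced ones. CCL20, a chemokine of mucosal lymphocytes, had 491.2, 500.1 and 429.2 in hairpin-induced cells against 2298.7, 2473.7 and 2313.8 in uninduced cells, and 1316 on average in A5M cells. IL10 averaged 38.1 ± 3.10 in hairpin-induced, 42.9 in A5M and 80.7 ± 10.1 in uninduced cells. In all, 3 of 22 tested cytokine and chemokine genes rose and 5 fell (36.4% called, beside 40.7% of all genes). The counts with the ACTB covariate were 1 and 2. The list median was 0.09, and -0.01 after median centring. Among 24 tested chemokine receptors and integrins 5 rose and 5 fell (41.7% called), or 5 and 3 with the ACTB covariate. ITGB7, the integrin chain of gut homing, had 177.5, 179.3 and 173.8 in hairpin-induced cells against 8.0, 4.9 and 4.7 in uninduced cells, and CCR1, a chemokine receptor, averaged 1420 ± 301.7 in hairpin-induced and 249.1 ± 33.6 in uninduced cells. CCR7, the receptor of lymph node homing, fell to 101.7 ± 9.17 in hairpin-induced cells, against 412.3 ± 12.8 in uninduced cells, with A5M cells at 246.7.

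Antigen presentation by MHC class II rose in 10 of 13 tested genes, with a median of 1.08. HLA-DRA had 2644.7, 2634.0 and 2697.7 in hairpin-induced cells, 424.7 on average in A5M cells, and 171.5, 214.4 and 281.0 in uninduced cells (3.54 ± 0.14, limma adjusted p = 2.22e-15). HLA-DRB1, the beta chain, averaged 1793 ± 174.8 in hairpin-induced, 336.2 in A5M and 160.0 ± 16.0 in uninduced cells. CD74, the invariant chain, averaged 1172 ± 44.9 in hairpin-induced, 177.3 in A5M and 109.1 ± 30.4 in uninduced cells, and HLA-DPA1 rose by 2.19. A5M cells were called higher than uninduced cells for all 4 of these genes, by 0.92, 1.02, 0.65 and 0.39. The 1 fall was CIITA, the master regulator of these genes (-1.04), named after its value was seen. A further CIITA probe set was called in the other direction (1.65), so the array gives that gene no direction. HLA probe sets can read near-identical family members. The promoters of HLA-DRB1 (minus strand, chr6:32589799-32590098) and HLA-DMA, which loads peptides (minus strand, chr6:32953048-32953347), are shown with the letters of the class II Y box, CTGATTGG, in capitals.
HLA-DRB1: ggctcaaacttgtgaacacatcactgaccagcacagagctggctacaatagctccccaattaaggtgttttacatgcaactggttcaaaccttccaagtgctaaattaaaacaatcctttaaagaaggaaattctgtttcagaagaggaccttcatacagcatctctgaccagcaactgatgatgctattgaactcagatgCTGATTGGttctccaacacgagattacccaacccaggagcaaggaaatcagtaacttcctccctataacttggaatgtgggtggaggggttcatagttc
HLA-DMA: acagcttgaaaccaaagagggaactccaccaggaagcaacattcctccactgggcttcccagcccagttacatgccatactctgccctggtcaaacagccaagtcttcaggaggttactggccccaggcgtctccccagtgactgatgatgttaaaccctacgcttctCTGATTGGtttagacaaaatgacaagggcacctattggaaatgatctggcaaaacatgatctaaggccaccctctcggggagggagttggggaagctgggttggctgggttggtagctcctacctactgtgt
Those letters, on either strand, were in 4 of 11 promoters of class II genes (36.4%), beside 23.1% of the mitotic promoters, 4.8% of promoters of genes tested and 4.2% of all. HLA-DMA itself, chosen after its value was seen, rose by 2.09. MHC class I presentation changed less, with 5 rises and 2 falls in 13 tested (53.8% called). HLA-C had 4286.4, 4470.0 and 4607.1 in hairpin-induced cells, against 2071.2, 2497.7 and 2380.1 in uninduced cells, whereas the proteasome subunit PSMB8 fell by 0.68.

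Interferon response genes rose in 12 and fell in 1 of 29 tested (44.8% called, beside 40.7% of all genes, median 0.47). IFIT1, an interferon-induced RNA-binding protein, had 118.8, 124.1 and 108.5 in hairpin-induced cells against 3.0, 4.3 and 6.7 in uninduced cells (3.04 ± 0.27, limma adjusted p = 1.98e-09). No other member passed 2-fold, with IFI44 at 0.98, IFIT5 at 0.97 and IRF1 at 0.80. IFIT5 was not called without uninduced replicate 2 (0.71, limma adjusted p = 0.0727). With the ACTB covariate the list had 5 rises, and after median centring 10 rises and 3 falls.

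Calcium-binding, cytoskeletal and lysosomal genes rose in most of their tested members. Of 23 tested S100 proteins, annexins and galectins 16 rose and 2 fell (median 0.85). S100A4, a calcium-binding protein of motile cells, had 1703.3, 1452.7 and 1448.5 in hairpin-induced cells against 7.0, 12.3 and 22.4 in uninduced cells (6.00 ± 0.22, limma adjusted p = 3.32e-16), the largest rise of the 9097 genes. A5M cells, at 39.5 on average, were called higher than uninduced cells (1.05, limma adjusted p = 0.00386). S100P averaged 484.5 ± 14.7 in hairpin-induced, 81.7 in A5M and 37.0 ± 22.4 in uninduced cells. S100A6 had 5103.4, 6696.8 and 6688.2 in hairpin-induced cells against 824.1, 821.4 and 823.4 in uninduced cells. The paired proteins S100A8 and S100A9, calprotectin, rose by 2.62 and 2.61. LGALS1, galectin-1, had the largest rise of signal among called genes changed at least 2-fold without overlap. It had 10912.8, 8930.6 and 10700.7 in hairpin-induced cells and 4083.7, 3986.5 and 4031.7 in uninduced cells. With the ACTB covariate the list had 10 rises and 2 falls.

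Actin and motility genes rose in 21 and fell in 1 of 29 tested (median 0.60). CAPG, an actin-capping protein, had 1801.6, 1653.1 and 1649.5 in hairpin-induced cells against 176.9, 156.8 and 153.9 in uninduced cells (3.30 ± 0.13, limma adjusted p = 1.27e-15). CORO1A, coronin of leukocytes, rose by 2.41, the GTPase RHOB by 2.32 and the motor MYO1F by 2.24, and A5M cells were not called for any of these 4 genes. RAC2, a GTPase of blood cells, was already bright and averaged 5458 ± 249.8 in hairpin-induced and 2617 ± 288.1 in uninduced cells. With the ACTB covariate 15 rose and none fell.

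Lysosomal genes rose in 21 and fell in 3 of 29 tested (median 0.72). LAPTM5, which sits in lysosomal membranes of leukocytes, had 1213.0, 1112.5 and 1166.9 in hairpin-induced cells against 91.1, 94.7 and 93.6 in uninduced cells (3.5 ± 0.12, limma adjusted p = 1.11e-16). ATP6AP1, an accessory subunit of the proton pump, averaged 1318 ± 97.1 in hairpin-induced and 350.9 ± 29.4 in uninduced cells. LAMP2, a membrane protein of lysosomes, rose by 1.6 and cathepsin D (CTSD) by 1.57. CD63, a tetraspanin of lysosomes and granules, was among the 10 largest rises of signal of called genes changed at least 2-fold without overlap. It averaged 5502 ± 410.9 in hairpin-induced, 2773 in A5M and 2167 ± 136.2 in uninduced cells. The 3 falls, named after their values were seen, were the proteases CTSL (-0.83) and CTSB (-0.38) and the glycosidase GLA (-0.48). With the ACTB covariate the list had 13 rises and 1 fall.

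Further genes of the largest changes belonged to none of these groups. CLIC3, a chloride channel protein, averaged 243.7 ± 30.1 in hairpin-induced and 2.87 ± 0.802 in uninduced cells (4.19 ± 0.32, limma adjusted p = 1.81e-10). CDA, cytidine deaminase, rose by 3.65, DBNDD1 by 3.44 and the antimicrobial peptide gene CAMP by 3.32. ALOX5AP, a cofactor of leukotriene synthesis, averaged 6893 ± 756.5 in hairpin-induced and 3038 ± 537.3 in uninduced cells, and SH3BGRL3 and ARL6IP5 rose by 2.07 and 1.70. UPK1B, a tetraspanin known from urothelium, had the largest fall of signal among called genes changed at least 2-fold without overlap. It had 572.9, 581.0 and 468.5 in hairpin-induced cells and 5244.9, 6209.4 and 5411.6 in uninduced cells. GAS1, a membrane-anchored coreceptor of hedgehog proteins, had 384.0, 376.5 and 383.8 in hairpin-induced cells, 1554 on average in A5M cells, and 2730.2, 2919.2 and 3031.5 in uninduced cells. CALML4, a calmodulin-like protein, fell (-3.90), as did FABP5, a fatty acid binding protein (-1.90), PCLAF, a partner of the sliding clamp (-2.45), and the histone variant H2AZ1 (-1.44). CDK5RAP2, a centrosomal protein, averaged 1037 ± 51.6 in hairpin-induced, 1623 in A5M and 3871 ± 147.0 in uninduced cells.

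**Figure D4:**
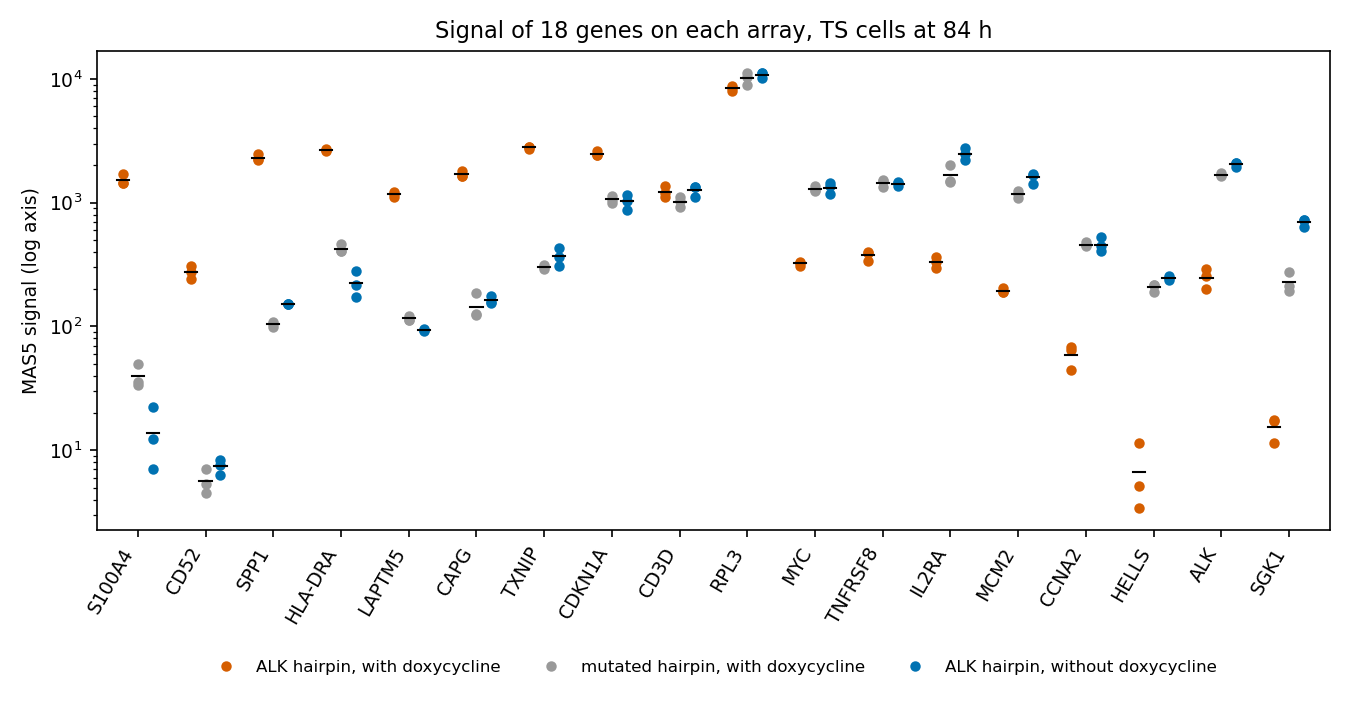
MAS5 signal (log axis) of 18 genes on each array of hairpin-induced (orange), A5M (grey) and uninduced (blue) TS cells at 84 h, with the mean as a bar. The 3 orange points of S100A4 lie at 1448.5 to 1703.3 and those of SGK1 at 11.5 to 17.7. CD3D overlaps between the groups.

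The labelled cell type was checked against markers. All 6 tested markers of ALK-positive ALCL were above the filter on all 6 arrays, and their summed signal was 6664 to 7332 in hairpin-induced and 11671 to 12095 in uninduced cells, with ALK, TNFRSF8, IL2RA and GZMB lower and PRF1 higher. The summed T-cell markers were 1425 to 1729 in hairpin-induced and 1404 to 1693 in uninduced cells and none of 6 tested was called, CD3D giving most of the sum while CD7, LCK and CD3G stayed below the filter. B-cell markers summed to 78.4 to 117.7 in hairpin-induced and 62.4 to 93.0 in uninduced cells, and none was called. Myeloid markers summed to 380.1 to 454.9 in hairpin-induced and 166.0 to 207.3 in uninduced cells, of which CSF1R made most (346.4 ± 40.5 against 148.1 ± 20.7 in uninduced cells, a rise of 1.17). Of the defining myeloid genes, CD14 averaged 6.07 ± 1.88 in hairpin-induced and 4.60 ± 1.54 in uninduced cells and LYZ 2.27 ± 1.17 and 1.63 ± 0.586, both near 0. FCN1 averaged 35.6 ± 3.96 in hairpin-induced and 6.13 ± 2.68 in uninduced cells and was below the filter, so it was not tested, and MPO, at 33.2 ± 8.82 in hairpin-induced and 25.7 ± 4.35 in uninduced cells, was not called. Epithelial markers summed to 162.9 to 169.1 in hairpin-induced and 87.9 to 120.8 in uninduced cells, with KRT18 called (1.23) and EPCAM and KRT19 below the filter. Stromal markers summed to 357.3 to 429.9 in hairpin-induced and 219.4 to 299.9 in uninduced cells, with COL1A2 (0.96) and DCN (1.28) called. Of wider lists, 4 of 11 tested myeloid genes rose, S100A8 and S100A9 among them, and 1 fell (45.5% called, beside 40.7% of all genes). Of 12 tested epithelial and stromal genes 6 rose and none fell (50% called), with SPARC at 2.95 and ACTA2 at 1.31. The part of other cells in these results was not tested.

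A5M cells with doxycycline were set beside these values. They carried another hairpin vector than the uninduced A5 cells, and the series has no A5M arrays without doxycycline. Effects of doxycycline, of the mutated hairpin and of differences between the engineered populations cannot be told apart here. Against the same uninduced arrays A5M cells had 637 called genes (7.0% of those tested), 295 higher and 342 lower, with a median difference of 0.00. When only the arrays of the 2 groups were fitted, the count was 149, with 51 higher and 98 lower. Since the 2 comparisons share the uninduced arrays, only values are given side by side. YKT6, of vesicle fusion, averaged 170.1 ± 41.3 in hairpin-induced, 162.6 in A5M and 62.9 ± 21.6 in uninduced cells, but 119.7 ± 11.6, 197.8 and 131.2 ± 27.0 by its other probe set, which gave no rise in hairpin-induced cells (log2 difference -0.11). FASN, fatty acid synthase, averaged 1079 ± 29.4 in hairpin-induced, 909.5 in A5M and 596.8 ± 60.2 in uninduced cells. These genes, with CHAC1, RORA, TIGAR and IRS1 above, stood with A5M on the side of the hairpin-induced cells. With the ACTB covariate the hairpin-induced difference was not called for YKT6 (0.80, limma adjusted p = 0.0876), FASN (0.62, limma adjusted p = 0.0556), IRS1 (-0.66, limma adjusted p = 0.128), IL10 (-0.82, limma adjusted p = 0.0709), HK2 (-0.42, limma adjusted p = 0.203) or NDRG1 (0.24, limma adjusted p = 0.532). GZMB and SLC1A5 stood on the other side of the uninduced cells: A5M averaged 4440 and 1652, while hairpin-induced cells averaged 1138 and 543.8 and uninduced cells 3307 and 1091.

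The response at 84 h was set against that at 72 h on separate arrays of TS cells. The ACTB ratio at 72 h was 1.32 ± 0.05 in hairpin-induced and 1.59 ± 0.11 in uninduced TS cells. It was thus lower in hairpin-induced TS cells at both times. In Su-DHL1 cells it was 1.36 ± 0.08 in hairpin-induced and 1.39 ± 0.03 in uninduced cells. Whether shared calls go with the ratio was not tested. At 72 h 3108 genes were called (34.2%), and 2599 were called in the same direction at both times, 70.2% of the 84 h calls and 83.6% of the 72 h calls, while 2 were called in opposite directions. Of the 977 genes called with at least 2-fold change at 84 h, 878 (89.9%) were called in the same direction at 72 h. The difference between the responses themselves was called for 116 genes (1.28%), 27 with a more positive and 89 with a more negative difference at 84 h. Cell division genes were frequent among the second: 17 of 29 tested kinetochore and spindle genes and 11 of 17 mitotic kinases, but 4 of 23 origin and helicase genes. CENPM was at -1.23 at 72 h and -3.62 at 84 h, HELLS at -1.75 and -3.89, and CENPE, a kinetochore motor, was at -0.30 and -2.24. ERCC6L, a helicase of mitotic chromosomes, was at -1.23 and -2.85, and ZNRD2 at -0.33 and -2.06. Such a difference can lie in either group. S100A4 was at 4.0 and 6.0, with 651.6 ± 72.8 in hairpin-induced and 30.3 ± 2.57 in uninduced cells at 72 h, and 1535 ± 145.9 and 13.9 ± 7.82 at 84 h. SPP1 was at 2.86 and 3.82, with 2735 ± 23.2 in hairpin-induced and 368.3 ± 35.1 in uninduced cells at 72 h, each above the same group at 84 h. CCR7 was at -1.08 and -1.91, with 83.5 ± 7.14 in hairpin-induced and 189.1 ± 22.9 in uninduced cells at 72 h, so that the uninduced cells were again the ones further apart between times. FZD1, a Wnt receptor, was at 0.07 and 1.33 by the probe set used. SERPINB4, a serine protease inhibitor, averaged 7.0 ± 6.79 in hairpin-induced and 239.1 ± 24.2 in uninduced cells at 72 h, and 7.17 ± 1.94 and 78.8 ± 20.5 at 84 h, so that the induced cells were alike at both times and the uninduced ones were apart. PLBD1, at low signal, was at -0.88 and 1.15. The difference of ZNRD2 lost its call when any of 8 of the 12 arrays was left out, and that of PLBD1 lost it for 8 of the 11 arrays whose removal left the gene in the test. ALK itself, at -2.44 and -3.00, was not called for the difference (-0.56, limma adjusted p = 0.0795).

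**Figure D5:**
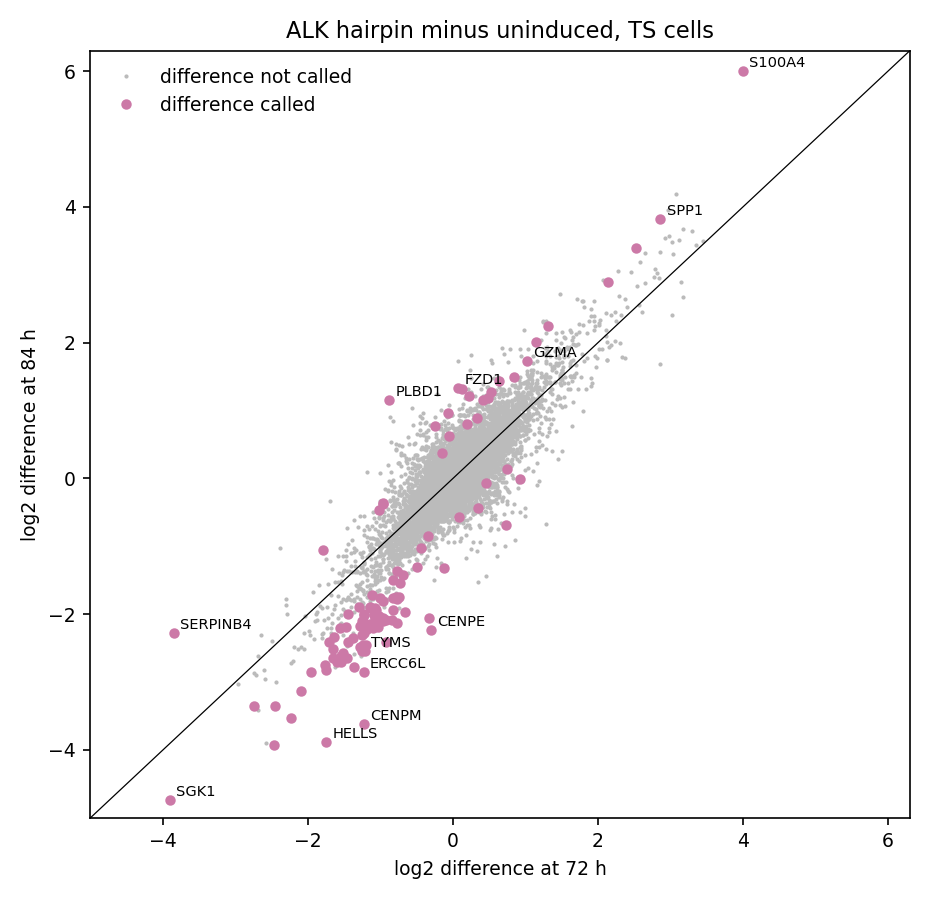
Log2 difference, hairpin-induced minus uninduced TS cells, at 84 h (vertical axis) against 72 h (horizontal axis) for 9097 genes, with the line of equal differences. Pink points are the 116 genes whose difference between the times was called. S100A4 lies at 4.0 and 6.0, and CENPM at -1.23 and -3.62.

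In Su-DHL1 cells at 72 h 2238 genes were called (24.6%), and 1761 of them in the same direction as in TS cells at 84 h, which is 78.7% of the Su-DHL1 calls and 47.6% of the 84 h calls. In all 3 comparisons 1599 genes were called in 1 direction, 841 higher and 758 lower. Of the 977 genes with at least 2-fold change 708 (72.5%) shared direction and call in Su-DHL1 and 5 were called in the opposite direction. These were CDKN1A, SPP1, the G-protein regulator RGS2, CCR7 and the phosphatase DUSP4. CDKN1A was at 1.28 in TS at 84 h and at -0.34 in Su-DHL1, SPP1 at 3.82 and -0.69, RGS2 at 1.26 and -0.45, CCR7 at -1.91 and 0.95, and DUSP4 at 1.34 and -0.82. TS cells at 72 h, the time of the Su-DHL1 arrays, gave calls in the same direction as TS cells at 84 h. CDKN1A was then at 0.53, SPP1 at 2.86, RGS2 at 0.66, CCR7 at -1.08 and DUSP4 at 1.13. The difference between the lines was not tested. Some of the largest rises in TS cells were also small in Su-DHL1: S100P was at -0.00, S100A8 at 0.05 and CDA at 0.41, none of them called there.

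Genes with several probe sets were looked at again. Of 15338 probe sets tested 5775 (37.7%) were called. Among 2896 genes with several tested probe sets, 870 had at least 2 called, and for 24 of those the calls had opposite directions. RFC5, a clamp loader subunit, was at -1.55 and 0.61 and CFLAR, an inhibitor of caspase 8, at -0.35 and 1.21, chosen for naming after their values were seen. CIITA, above, was another of the 24, and none of the genes picked by the rule for naming was among them. That count leaves out probe sets that were not called. The groups overlapped by a further tested probe set, not the one used above, for YKT6 (-0.11), FZD1 (0.28), PIK3CD (0.22), NOP16 (0.57), HK2 (-0.21), ACTA2 (-0.51), FYN (0.56) and TNFRSF9 (-0.79). The further probe set of ACACA was lower in hairpin-induced cells (-0.49), without overlap. Probe sets that kept the direction could differ in size. The value of the probe set used comes first here. Changes were smaller by further ones for IL2RA (-2.87, -1.13), CALML4 (-3.9, -1.77), CDC25A (-3.03, -1.42) and NOLC1 (-1.13, -0.48, -0.43). BIRC5 was at -2.7 and no lower than -1.31 by the others. Changes were larger for HLA-DRA (3.54, 4.19) and RRM2 (-2.66, -2.95). The standard errors leave out such differences between probe sets.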

How the data were processed

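Total RNA was hybridised to Affymetrix human oligonucleotide arrays, 1 per sample. The deposited values are the authors' MAS5 signal, a linear intensity per probe set, per the submitters' processing notes, and the trimmed mean of each array was 200.06 to 200.08. No other step of the authors is given in the sources used here. Here 11 was added to the intensities, log2 was taken, and 1 probe set per gene was kept (the highest mean over 33 arrays), provided that at least 3 arrays of the fit had it at or above their 40th percentile. Of 22215 probe sets analysed 19065 carried 1 gene symbol, 1043 several and 2107 none, and names came from GEO's platform annotation. The fit used limma 3.58.1 in R 4.3.3 (lmFit, eBayes with trend, two-sided) over the 21 hairpin arrays in 7 groups, with Benjamini-Hochberg adjustment over 9097 genes. The 12 inhibitor arrays were not used. The number of arrays limits the precision, and the median standard error was 0.16. Simulated data with 9097 genes for the 84 h comparison had 200 changed genes. Called were 21 of 50 changes of 0.5, 42 of 50 of 1, 39 of 50 of -1 and 50 of 50 of 2 (log2), and 6 unchanged genes. Since 3700 genes were called in the data, the adjustment was stricter in the simulation. The shares called there need not hold for the 84 h comparison.

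The genes named were ALK, NPM1, CEBPB and BCL2A1, and the 15 highest and 15 lowest called differences without overlap of the groups. Added to them were the 10 largest rises and falls of signal among called genes with at least 2-fold change and no overlap. Up to 4 called members of each of 41 lists and the 5 highest and lowest differences between times completed the set. The members, lists and promoter letters were chosen with earlier results of these data known. Lists were counted and not tested. Replicate numbers did not pair the samples (correlations of same-numbered deviations -0.01, -0.01 and -0.03). Alternatives covered the added constant, the filter, scaling, eBayes without trend, averaged probe sets, a replicate block, the ACTB ratio, fewer arrays and leaving out each replicate.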

Additional observations from a re-analysis of the deposited data

Results flagged for a closer look

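The named genes below stood out because their response to the hairpin in TS cells differed between 84 h and 72 h by a test of the difference itself (limma, adjusted p below 0.05), given in parentheses as the log2 response at 84 h minus that at 72 h. Of genes that copy DNA or supply nucleotides, these were GINS2 (-1.46), GINS1 (-0.90), MCM4 (-0.89), RFC3 (-0.65), DTL (-1.29), RRM2 (-1.07), TYMS (-1.33) and PCLAF (-1.24). Of mitotic genes, they were CENPM (-2.39), CENPE (-1.95), KIF15 (-1.09), SPC25 (-0.85), BIRC5 (-1.15), ERCC6L (-1.62), FOXM1 (-1.42), AURKB (-1.16), ESPL1 (-0.96), PTTG1 (-0.99), CDK1 (-1.05) and CCNA2 (-0.98), and of chromatin and repair genes HELLS (-2.13), ASF1B (-1.05), FANCI (-1.06) and RAD51AP1 (-1.02). All of these were more negative at 84 h, and CENPE was not called at 72 h (limma adjusted p = 0.21).

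Outside the cell cycle the response was more negative at 84 h for SGK1 (-0.85), UPK1B (-0.61), FABP5 (-0.76), ZNRD2 (-1.73), MYC (-0.54) and CCR7 (-0.83). It was more positive at 84 h for S100A4 (2.0), PLBD1 (2.03), FZD1 (1.26), YKT6 (1.19), SPP1 (0.96), HLA-DRB1 (0.88), GZMA (0.71), ALOX5AP (0.70) and TXNIP (0.76), and also for the CDK inhibitor CDKN1A (0.76). At 72 h neither ZNRD2 nor PLBD1, FZD1 and YKT6 was called (limma adjusted p = 0.472, 0.0516, 0.797 and 0.695). SERPINB4 (1.57) was below its uninduced cells at both times, with log2 differences of -2.28 at 84 h and -3.85 at 72 h. The adjusted p of SGK1 was 0.0495 and that of CENPM 1.78e-06. When 1 array was left out at a time, 15 of these 41 genes lost the call at least once. SGK1 and SPC25 lost it for 11 of the 12 arrays, GINS2 and MYC for 10, CCR7, RAD51AP1 and ZNRD2 for 8, UPK1B and HLA-DRB1 for 6, ALOX5AP, FABP5 and YKT6 for 5, and AURKB and TXNIP for 3. PLBD1 lost it for 8 of the 11 arrays whose removal left it in the test. The other genes kept it in every case.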

How the results depend on the processing

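The count of 3700 called genes at 84 h was 1899 (928 higher, 971 lower) with the ACTB ratio as a covariate, and 3310 to 3527 when 1 replicate was left out. The 116 differences between times were 76 with eBayes without trend and 78 to 123 when 1 replicate was left out. The 637 genes called for A5M were 149 when only the arrays of the groups compared were fitted, with fewer samples to estimate the spread, and 439 to 585 when 1 replicate was left out. A replicate block gave 3592, 84 and 530 genes in these comparisons; the numbers did not pair the samples. No named gene turned direction under the alternatives run. Of the values of named genes at 84 h, 1888 kept their call and 27 lost it over the other alternatives, and 1043 kept it and 7 lost it over the left-out replicates. For the differences between times 390 kept it and 59 lost it over the other alternatives, and 384 kept it and 107 lost it over the left-out replicates. The causes were not tested. Low signals limit the smallest genes, whose fold changes depend on the added constant, and after median centring the medians of ribosomal proteins, T-cell surface genes, cytokines, chemokine receptors and stress genes were on the other side of 0.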

Other observations

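Of 22 tested histone genes of the clusters, 12 were called higher and 1 lower in hairpin-induced cells, with a median log2 difference of 0.54. Over all genes tested 21.8% were called higher and 18.8% lower. With histone variants included, 12 were higher and 5 lower in 27 tested, with a median of 0.17. The histone genes were picked after their values were seen. H2AC6 had 2281.9, 1730.2 and 1706.9 in hairpin-induced cells, against 194.3, 182.6 and 214.8 in uninduced cells (3.19 ± 0.11, limma adjusted p = 2.9e-16), and A5M cells averaged 186.9. H2BC5 rose by 2.39, the linker histone H1-2 by 2.30 and H2BC12 by 2.10. H3C7 was the 1 gene called lower (-0.49). Several of these probe sets read more than 1 member of a histone family, so the members are uncertain.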
